A study of Saccharomyces cerevisiae with 6 samples.

Results

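Slow RNA polymerase II was compared with WT in 4 of the 6 libraries of the series. They were the 2 slow libraries (rpb1-H1085Y) and the 2 WT libraries (RPB1), each from an independent culture. The members were every gene of the authors' read-class tables and every splice junction of their alignments. These came to 312 genes and to 14443 junctions with at least 1 unique read in slow or WT, of 19994 junctions in the whole series. The genes were 86 ribosomal protein (RP) genes, 178 other nuclear intron genes (non-RP), 45 genes with a programmed ribosomal frameshift and 3 mitochondrial intron genes. RP genes were taken by a name in RPL or RPS, so that the ribosomal protein gene RPP1B was counted as non-RP. The slow and WT strains were haploid MATa budding yeast with a TAP-tagged RPB3, deleted for UPF1 and for chromosomal RPB1. A LEU2 plasmid supplied rpb1-H1085Y in slow cells and RPB1 in WT cells, so that every slow value comes from 1 allele in 1 strain background. Cells were grown in rich medium to log phase, and rRNA-depleted total RNA was sequenced from both ends with strand kept. The 2 fast libraries (rpb1-G1097D, same background) were not tested against WT or slow. They served to estimate the spread between replicates, and they entered the scaling and the read minimums, so that a site could be kept through them. A few of their values are given beside those of slow and WT.

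Rpb1 is the largest subunit of RNA polymerase II, and residue H1085 lies in its trigger loop, a mobile element that closes over the incoming nucleotide. The H1085Y substitution slows the polymerase, which leaves more time between the synthesis of a splice site and that of the sequence behind it. Yeast introns are few, are concentrated in highly expressed RP genes, and carry a nearly invariant branch site. Upf1 is needed for nonsense-mediated decay, so that misspliced transcripts with early stop codons persist in all of these strains.

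The slow libraries held 4127729 and 5517128 unique split reads, against 6057538 and 5340550 in WT. Reads on the genes of the tables came to 7682741 and 10333540 in slow and to 10610833 and 9666588 in WT. Relative to the first WT library, the whole libraries derived from the FPKM values were 1.19 and 1.30 in slow and 1.04 in the second WT library. The tabulated genes therefore took a smaller part of the slow libraries. Levels are given in CPM, reads per 1000000 reads of the same kind after TMM scaling, and the levels of total, junction, annotated junction and pre-mRNA reads were also tested with these library totals. That scaling moved the median log2 ratio of slow over WT of all genes from 0.13 to −0.12 for total reads. RPB1 and UPF1 were not analysed here, so the labels were not checked on the altered genes themselves.

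Spliced mitochondrial RNA was nearly missing from the slow libraries. Group I and group II introns of yeast mitochondria interrupt COX1 and COB, which encode core subunits of cytochrome oxidase and of the bc1 complex, and the 21S ribosomal RNA, and several of these introns encode maturases. Unique reads over junctions of the mitochondrial genome made up 0.00804% and 0.00531% of all unique split reads in slow, against 0.999% and 1.17% in WT. The fast libraries held 0.492% and 0.649%. The slow share was 162.4-fold lower than that of WT, with no overlap between the strains, and an exact two-sided permutation test on 2 against 2 libraries gave p = 0.333, the smallest p it allows. Without slow replicate 1 the ratio was 204.2, and without slow replicate 2 it was 134.8. The share counts unannotated junctions too, which had 116 and 46 unique reads in slow and 93 and 106 in WT. Annotated ones had 216 and 247 in slow and 60412 and 62376 in WT. All 13 annotated mitochondrial junctions that were tested fell, by 183- to 289-fold in their mean share of unique split reads. They also fell in edgeR's quasi-likelihood test over all annotated junctions. In that test 19.8% of 273 junctions were lower in slow and 27.8% were higher (30.4% and 4.4% with library totals). Both slow libraries lay below both WT libraries at 28.9% of the junctions and above them at 45.8%.

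The junction of the BI4 maturase reading frame in COB had 27 and 36 unique reads in slow and 9594 and 10638 in WT. BI2, in the same gene, had 35 and 37 reads in slow against 8579 and 8907 in WT. The 2 junctions assigned to COX1 had 7 and 12 reads each in slow, against 2941 and 3378 for one and 2452 and 2866 for the other in WT. The single intron of the 21S rRNA had 1 read in each slow library and 303 and 266 in WT. Reads remained on every one of these junctions in slow, and no junction stood out from the others. Reads of the other classes fell as well. Summed over all classes, reads on AI2, the maturase frame of a COX1 intron, came to 460 and 668 in slow and to 106742 and 130307 in WT (log2 ratio −7.77, standard error 0.21, edgeR adjusted p = 1.06e-07). Unspliced reads fell together with spliced ones. On AI2, reads on intron boundaries or inside the intron came to 232 and 352 in slow and to 51006 and 68457 in WT (log2 ratio −7.55, standard error 0.21), and reads over its junction to 1 and 2 in slow and to 408 and 506 in WT (log2 ratio −8.25, standard error 0.55). BI2 gave −7.94 for unspliced reads and −8.30 for junction reads. Whether the few reads left in the slow libraries came from RNA of slow cells at all was not tested. Fewer cells with such RNA and less of it per cell cannot be told apart either.

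**Figure D1:**
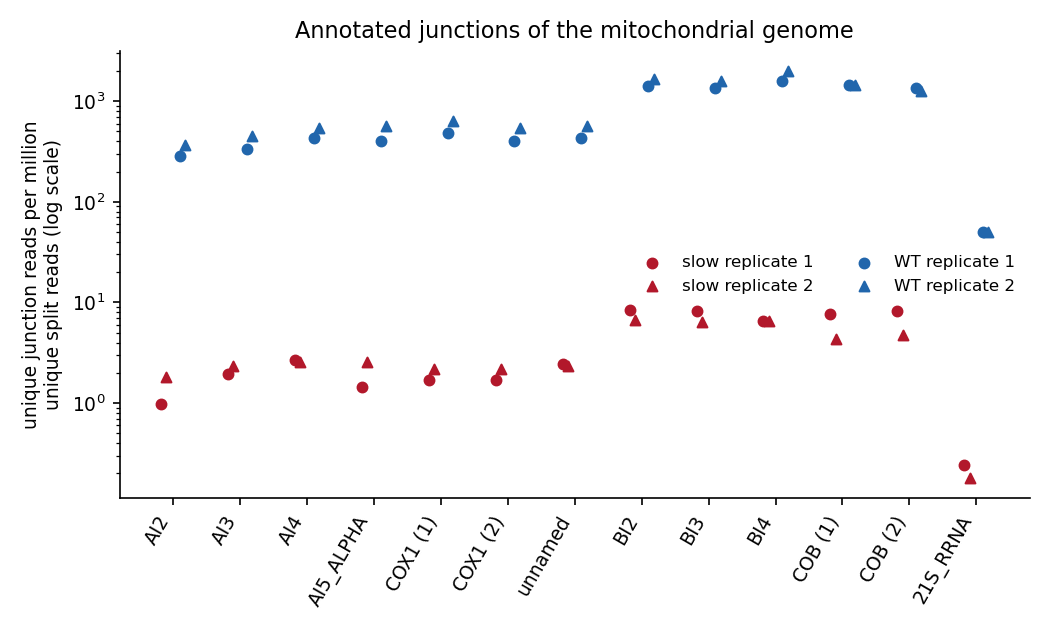
Unique reads per 1000000 unique split reads over the 13 annotated mitochondrial junctions (log scale), with 1 point for each of the 2 slow and 2 WT libraries. Numbers in brackets tell junctions of 1 gene apart; all slow points lie 183- to 289-fold below those of WT by group means.

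Among nuclear transcripts, RP genes and the other genes moved apart. Summed over all read classes, 103 of 312 genes (33.0%) were higher in slow and 84 (26.9%) were lower in edgeR's test at an adjusted p under 0.05. RP genes were lower in 73 of 86 cases and higher in none, with a median log2 ratio of −0.29. Non-RP genes were higher in 67 of 178 cases and lower in 7, with a median of 0.24. With library totals, RP genes remained lower (68 of 86, median −0.54), but the non-RP genes no longer shifted (12 higher and 7 lower, median −0.01). A change of scaling moves all genes together, so it is no test of the level of RP transcripts relative to the others. The direction of the typical non-RP gene depended on the scaling. Over all genes, library totals gave 47 higher (15.1%) and 80 lower (25.6%). Junction reads of the same tables were higher at 38 of 265 genes (14.3%) and lower at 75 (28.3%), or at 6.42% and 21.1% with library totals. Their libraries did not overlap at 39.2% (slow above) and 37.0% (slow below) of these genes, and at 0 and 80 of the 86 RP genes.

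Among the 86 RP genes of the read-class tables the fall was small in size, apart from RPS14B (log2 ratio −1.02). These tables do not hold RPL7A and RPL7B, whose junctions are given below. RPL22A, whose protein belongs to the large subunit, had 9644 and 9128 CPM in slow and 13173 and 12540 in WT (log2 ratio −0.45, standard error 0.05, edgeR adjusted p = 2.24e-04). RPS13, of the small subunit, had 11600 and 12559 CPM in slow against 16353 and 15631 in WT (log2 ratio −0.40, standard error 0.05). In both genes the slow libraries lay clearly below those of WT. RPL30, RPS9B, RPL42B, RPL33B, RPS22B, RPS17A and RPS16B fell by log2 ratios between −0.52 and −0.45. Of the 86 RP genes, 82 had both slow libraries below both WT libraries, against 33.0% of all genes, and none had both above, against 51.3% of all genes. ASC1, which encodes the ribosome-bound RACK1 homologue and was grouped with the non-RP genes, moved with the RP genes. It had 13912 and 15185 CPM in slow and 19800 and 19822 in WT (log2 ratio −0.45, standard error 0.05).

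**Figure D2:**
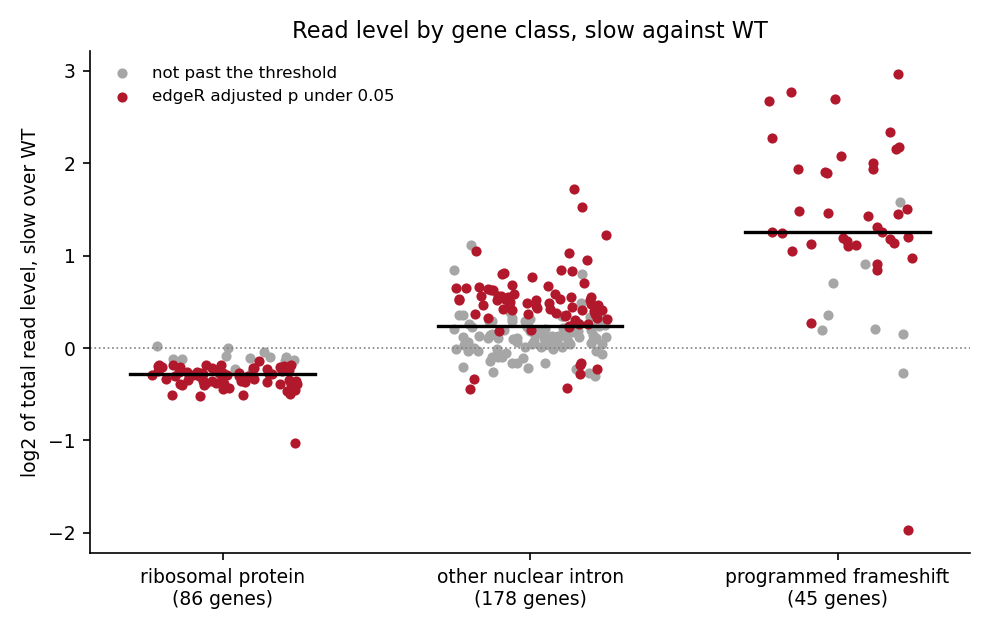
Log2 ratio of total reads in slow over WT for each nuclear gene after TMM scaling, in 3 classes, with a black line at the median. RP genes centre on −0.29, other intron genes on 0.24 (−0.01 with library totals) and frameshift genes on 1.25; red points passed edgeR's adjusted p of 0.05.

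Most yeast RP genes exist as a pair of paralogs, whose spliced reads could be followed separately at 41 pairs. The B gene took a smaller share of the pair in both slow libraries in 18 pairs, a larger share in 10, and the libraries overlapped in 13. RPL7B and RPS14B stood far from the rest. RPL7B contributed 3.66% and 3.60% of the first-intron junction reads of RPL7A and RPL7B in slow, against 8.58% and 9.20% in WT. Its first intron (chrXVI:173163-173571) had 542 and 500 CPM in slow and 1308 and 1404 in WT (log2 ratio −1.38, standard error 0.11, edgeR adjusted p = 1.49e-07). The second intron gave a log2 ratio of −1.43 (standard error 0.10). For RPL7A the ratios of its introns were −0.01 and −0.01, and its libraries overlapped between the strains.

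RPS14B showed the same kind of drop. Its protein binds its own pre-mRNA and represses its expression when RPS14A supplies enough protein. Its intron (chrX:73797-74204) had 1306 and 1168 CPM in slow and 2635 and 2186 in WT (log2 ratio −0.96, standard error 0.11, edgeR adjusted p = 8.22e-06). RPS14B made up 9.81% and 9.30% of the pair in slow and 17.2% and 15.1% in WT, while RPS14A had a log2 ratio of −0.10. Its unspliced reads fell too, to 6580 and 6846 CPM of pre-mRNA reads in slow, against 10847 and 11021 in WT (log2 ratio −0.70, standard error 0.10). In the other 39 pairs, the log2 ratio of the B gene differed from that of the A gene by −0.47 to 0.35. Paralogs share long stretches of sequence, so that reads without a distinguishing base may be assigned to either copy.

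**Figure D3:**
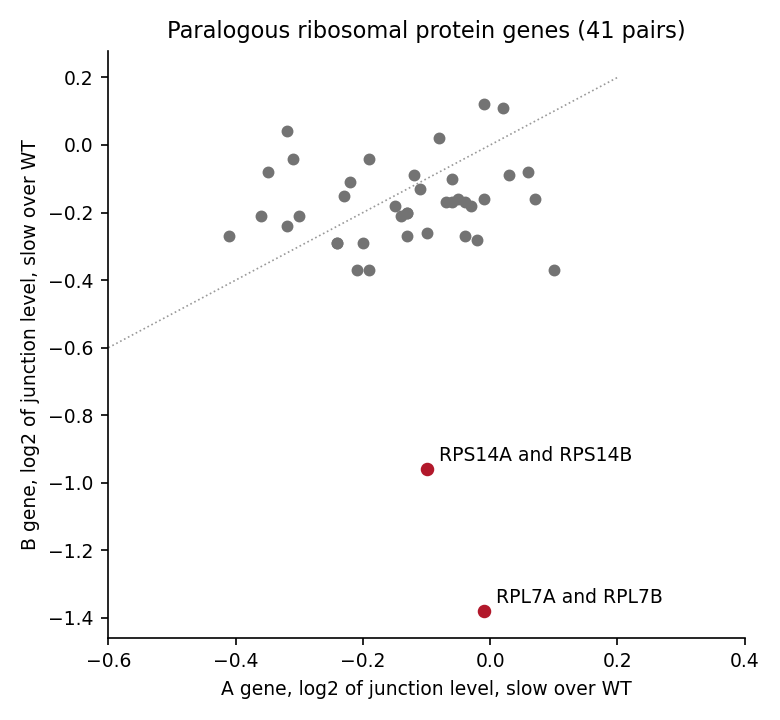
Log2 ratio of junction reads in slow over WT of the A gene (x axis) and of the B gene (y axis) in 41 pairs of RP paralogs, with a dotted line where both are equal. RPL7B at −1.38 and RPS14B at −0.96 lie far below their partners, and no other pair differs by more than 0.47.

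RPS14B belongs to a list of 6 genes whose products act on their own splicing. In total reads, 5 of these genes were lower in slow and 1 was higher, with a median of −0.39, against 26.9% lower and 33.0% higher of all genes. Of the 6 genes 4 are RP genes (RPL22B, RPL30, RPS9A and RPS14B), a class in which 73 of 86 fell. At annotated junctions 3 of the 6 fell (DBP2, RPL30 and RPS14B) and YRA1 rose, with a median of −0.22. RPL30, which encodes a ribosomal protein that binds its own transcript and blocks splicing, fell by 0.52 on the log2 scale. DBP2, an RNA helicase, had 1109 and 1213 CPM in slow and 1548 and 1583 in WT (log2 ratio −0.43, standard error 0.07). RPL22B and RPS9A also fell. YRA1, the mRNA export factor that represses splicing of its own long intron, was the exception, with 2340 and 2332 CPM in slow against 1834 and 1827 in WT (log2 ratio 0.35, standard error 0.05; 0.10 and no longer called with library totals). The 5 lower genes were called with either scaling.

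Spliced reads of nuclear genes for mitochondrial proteins were higher in slow. Of 11 such genes, 8 passed edgeR's test on annotated junctions and none fell, with a median log2 ratio of 0.66 beside 0.10 over all junctions, of which 27.8% were higher and 19.8% lower. With library totals 4 passed (4.4% of all junctions were then higher) and the median was 0.24, where that of all junctions was −0.31. The junctions as a whole mix classes that moved apart. After TMM scaling both slow libraries lay above both WT libraries at 122 of 164 non-RP junctions and at 3 of 90 RP junctions. MRPL44, a protein of the mitochondrial ribosome, had 576 and 505 CPM in slow and 153 and 221 in WT (log2 ratio 1.53, standard error 0.18, adjusted p = 7.72e-06). COX5B, the isoform of cytochrome oxidase subunit V known from hypoxic cells, had 320 and 387 in slow and 121 and 120 in WT (log2 ratio 1.56, standard error 0.17). CMC2, needed for cytochrome oxidase assembly, had 457 and 390 in slow against 152 and 188 in WT (log2 ratio 1.32, standard error 0.17). In all of these genes the lowest slow library exceeded the highest WT library by a wide margin. AIM11, OM14, PTC7, QCR10 and RIM1 also rose, by log2 ratios of 1.23, 0.41, 0.66, 0.50 and 0.44. Mitochondrial junction reads were 162.4-fold lower in the same slow libraries, and whether the changes are linked was not tested.

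In the other groups of genes, most calls of a higher level in slow were lost with library totals. The counts at junctions are to be read against 27.8% higher and 19.8% lower of all 273 junctions, with a median of 0.10, and with library totals against 4.4% higher and 30.4% lower. These totals mix the RP and non-RP classes. After TMM scaling both slow libraries lay above both WT libraries at 122 of 164 non-RP junctions, and below them at 57 of 90 RP junctions. No list was set against its own class alone. Of 9 genes of ubiquitin conjugation and the proteasome, 7 rose (median 0.50), including UBC8, an E2 enzyme, with 133 and 157 CPM in slow and 52.9 and 83.4 in WT (log2 ratio 1.09, standard error 0.27). RUB1, a ubiquitin-like modifier, rose by 0.57 on the log2 scale. With library totals 1 gene of this list was called. Of 18 junctions in genes of vesicle traffic 9 rose (median 0.36), and of 7 actin cytoskeleton genes 4 rose (median 0.35), among them ARP2 at 0.54. With library totals no junction of either list was called, and the medians were −0.03 and −0.05. Among 7 junctions of transcription and chromatin genes 3 rose and none fell (1 with library totals). In total reads of 13 genes of meiosis and sporulation, REC102 and SPO1 were higher in slow and none was lower (median log2 ratio 0.29, against 0.13 over all genes). Of 10 junctions of snoRNA hosts none rose and 3 fell, both introns of RPL7B and ASC1 (5 fell with library totals, median −0.48). In total reads 5 of 6 such hosts fell, ASC1, EFB1, IMD4, RPS22B and TEF4, or 3 with library totals, beside 26.9% and 25.6% of all genes. Of 6 genes that the study followed by RT-qPCR, COF1 rose and RPS13 fell, and of 28 junctions of the genes it names, 7 rose and 8 fell. The last 2 lists came from the study itself and are no independent evidence of direction.

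In RNA processing and export, 6 of 12 junctions rose and 1 fell, with a median of 0.38 beside 0.10 over all junctions (with library totals 1 rose and 1 fell, median −0.03). Most non-RP junctions were also higher in slow after TMM scaling, with both slow libraries above both WT libraries at 122 of 164. NMD2, which encodes the Upf1 partner Upf2, had the largest log2 ratio among the nuclear junctions that passed the test. It had 195 and 260 CPM in slow and 53.9 and 62.0 in WT (log2 ratio 1.98, standard error 0.23, edgeR adjusted p = 8.61e-06). Reads of all classes on NMD2 came to 719 and 906 CPM in slow against 206.3 and 288 in WT, a log2 ratio of 1.72 (standard error 0.22). MUD1, a protein of the U1 snRNP, rose by 0.93, and LSM7, SUS1, TAD3 and YRA1 rose by 0.44, 0.55, 0.53 and 0.32. In all, 130 junctions were called. The count was 53 without slow replicate 1, 83 without slow replicate 2 and 84 without WT replicate 1, and the call of NMD2 held in each of these fits. With library totals, 12 junctions rose and 83 fell, NMD2 among the 12.

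Retrotransposon reads were higher in slow. Of the 45 frameshift genes, 42 are Ty gag-pol genes, whose frames are joined by a slip of the ribosome and not by an intron. Summed over them, reads on the first frame came to 134074 and 181312 in slow and to 52127 and 58370 in WT. Of the 42 genes, 36 rose and 1 fell in edgeR's test of total reads, with a median log2 ratio of 1.28. Of all 312 genes 33.0% rose and 26.9% fell, with a median of 0.13. YNL284C-B had 1749 and 1831 CPM in slow against 244 and 310 in WT (log2 ratio 2.69, standard error 0.13, adjusted p = 5.15e-06). YBR012W-B had 557 and 627 in slow and 63.97 and 87.3 in WT (log2 ratio 2.97, standard error 0.18), and YGR161C-D rose by 2.77. YLR227W-B went the other way, with 132 and 121 CPM in slow against 421 and 571 in WT (log2 ratio −1.97, standard error 0.17). With library totals 35 of the 45 frameshift genes rose and 2 fell. Ty copies are nearly identical, so the value of a single copy is uncertain, since its reads may come from another copy. The other 3 frameshift genes, ABP140, OAZ1 and EST3, had log2 ratios of 0.20, 0.19 and −0.27 and did not pass the test.

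The balance of the second to the first coding part was tested at 85 genes. It was higher in slow at 4 genes (4.71%) and lower at 1 (1.18%), and all 5 were Ty genes. The second part held 63.4% and 62.4% of the exon reads of YDR210W-B in slow, against 38.9% and 37.2% in WT (log2 ratio 1.47, standard error 0.20, edgeR adjusted p = 0.027). YBL100W-B, YDR261W-B and YBL005W-B rose by 1.40, 0.82 and 0.72. At YLR227W-B, the copy whose total fell, the second part held 59.9% and 85.4% in slow and 97.4% and 98.5% in WT. No gene was called when any 1 library was left out, or with the slow and WT libraries alone. No RP or non-RP intron gene was called (4 non-RP genes at an unadjusted p under 0.05, with 3 non-RP genes called by DESeq2). Both slow libraries lay above both WT libraries at 44.7% of the 85 genes and below them at 17.6%.

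Unspliced RNA was measured by reads on an intron boundary or inside an intron. In these reads 24 of 259 genes (9.27%) were higher in slow and 35 (13.5%) were lower. RP genes were lower in 29 of 86 cases and higher in 2 (median log2 ratio −0.21), and non-RP genes were higher in 21 of 168 cases and lower in 3 (median 0.25, but −0.18 with library totals). With library totals, 1.54% of all genes were higher and 17.4% lower. Libraries of the strains did not overlap at 32.8% (slow above) and 27.0% (slow below) of the genes. The total of 59 called genes was 16 without slow replicate 1, 22 without WT replicate 2, 25 without WT replicate 1 and 39 without slow replicate 2. NSP1, a nucleoporin, had 639 and 500 CPM of pre-mRNA reads in slow and 120 and 149 in WT (log2 ratio 2.08, standard error 0.39, edgeR adjusted p = 9.13e-04). YRA1 had 10641 and 10524 in slow against 6646 and 6452 in WT (log2 ratio 0.69, standard error 0.10), and GCR1, an activator of glycolytic genes, gave 0.68. Both calls were lost with library totals (0.26 and 0.25). UBC12, the E2 enzyme for Rub1, rose by 1.22, and YSF3, a subunit of the splicing factor SF3b, by 1.15, and these calls were also lost with library totals.

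Among RP genes, RPS22B had 5006 and 6425 CPM of pre-mRNA reads in slow and 9596 and 10326 in WT (log2 ratio −0.80, standard error 0.12, edgeR adjusted p = 6.3e-05). RPS22B is a snoRNA host, and reads inside an intron count as pre-mRNA reads. Its value may therefore hold reads of the snoRNA or of the excised intron, and the level of its boundary reads alone was not tested. RPS9B had 10260 and 9298 in slow and 17233 and 15036 in WT (log2 ratio −0.72, standard error 0.10). RPL2A gave −0.87, with a call that was lost without slow replicate 1 or without WT replicate 1. Relative to spliced reads, unspliced reads were lower in both slow libraries than in both WT libraries at 90 of 250 genes (36.0%) and higher at 33 (13.2%). In edgeR's test of this ratio, none was higher (0.0%) and 1 was lower (0.4%), with 36 genes at an unadjusted p under 0.05 and 9 called by DESeq2. The called gene was PRE3, for a catalytic subunit of the proteasome. Its unspliced share was 6.76% and 6.01% in slow against 14.0% and 16.0% in WT (log2 ratio −1.37, standard error 0.20, adjusted p = 0.032), and the call was lost when any of the 4 libraries was left out. QCR9, of the bc1 complex, showed 22.2% and 23.8% in slow and 47.6% and 38.2% in WT (log2 ratio −1.33, adjusted p = 0.19).

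Within unspliced RNA, reads at the 3′ end of the intron were compared with reads at its 5′ end. No gene was called by edgeR (0.0% in either direction; 6 of 180 at an unadjusted p under 0.05, and none by DESeq2). Both slow libraries lay below both WT libraries at 49 genes (27.2%) and above at 25 (13.9%). Among RP genes they lay below at 34 of 86 and above at 4, with a median log2 ratio of −0.22, where non-RP genes had a median of 0.03. RPL30 came closest, with 97.3% and 96.5% of its boundary reads at the 3′ end in slow and 98.6% and 98.1% in WT (log2 ratio −0.90, adjusted p = 0.69). Reads inside the intron relative to those on its boundaries gave no call in edgeR or DESeq2 (10 of 124 genes at an unadjusted p under 0.05 in edgeR and 9 in DESeq2). Both slow libraries lay below both WT libraries at 20.2% of these genes and above at 12.1%.

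Fidelity of splice site choice was measured as splicing error frequency (SEF), the reads of a junction with 1 unannotated end over the reads of the annotated junction. Of 285 such sites, 82 were used more often in slow (28.8%) and 59 less often (20.7%) when the summed reads of each strain were set against each other (Fisher's exact test, p below 0.01, false discovery rate below 0.03). That test covers counting error only. Both slow libraries lay above both WT libraries at 23.2% of the sites and below at 18.2%. With edgeR, which takes the spread between libraries into account, no site passed in either direction (0.0%; 33 of 283 at an unadjusted p under 0.05), and DESeq2 called 7. Sites upstream of the annotated 3′SS were higher in 12 of 24 RP cases and in 13 of 38 non-RP cases, and lower in 6 and 5. Sites downstream of the annotated 5′SS were higher in 19 of 52 RP cases and lower in 10. Downstream 3′ sites split almost evenly, with 30 higher and 30 lower of 136.

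The sites below were chosen after their values were seen, as the more deeply read ones that differed between the strains, apart from those of RPL7B and RPS22B, which the rule for named genes gave (as it did those of DYN2, QCR9 and TUB3 further on). They are shown to let the used site be compared with the annotated one in R64. Capitals mark the last 3 bases of the intron at 3′ sites and the first 6 bases of the intron at 5′ sites.
APE2, used 3′SS, 25 bases upstream: ctattaattgtacccaaAAGtacga
APE2, annotated 3′SS: aggacaactaaaatgacCAGtaaaa
LSM2, used 3′SS, 47 bases upstream: acatcaatttttgaaaaAAGtcaag
LSM2, annotated 3′SS: tttattgtgtttccactCAGttaaa
UBC8, used 3′SS, 19 bases upstream: aatgtcaatgaacttcaAAGatatc
UBC8, annotated 3′SS: gatatcgtttaatgaaaCAGtagct
RPL26B, used 3′SS, 198 bases upstream: gacataaattccggcttTAGaatcc
RPL26B, annotated 3′SS: ttattatttgttttcaaTAGacgtt
RPL7B, used 5′SS, 314 bases downstream: ttatcGTGCATattt
RPL7B, annotated 5′SS of the second intron: aagccGTATGTtcat
RPS22B, used 5′SS, 414 bases downstream: atgaaGTAAGCaaaa
RPS22B, annotated 5′SS: gcatgGTATGTtcca

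APE2, an aminopeptidase gene, joined its AAG site at an SEF of 20.7% and 24.5% in slow, against 8.58% and 10.3% in WT (93 and 135 reads in slow, 37 and 39 in WT). UBC8 gave 15.7% and 11.9% in slow and 5.94% and 6.16% in WT. LSM2, a subunit of the Lsm ring of U6, gave 8.91% and 9.19% in slow and 5.38% and 4.99% in WT. In each case both slow libraries lay above both WT libraries and Fisher's test passed, while the edgeR adjusted p-values were 0.54, 0.54 and 0.56. TMH18 used a 3′ site 32 bases downstream at 7.46% and 5.79% in slow and 2.98% and 2.56% in WT, and YBR062C a site 5 bases upstream at 10.9% and 7.62% in slow against 2.48% and 1.72% in WT.

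In RP transcripts such sites were used at lower frequency. The upstream site of RPL26B, which shortens the intron to chrVII:555831-556109, was joined at 0.487% and 0.412% in slow and at 0.0722% and 0.130% in WT, from 314 and 348 reads in slow and 70 and 118 in WT. Fisher's test passed, and the edgeR log2 ratio was 2.20 with an adjusted p of 0.32. RPS7A used a site 343 bases upstream at 0.191% and 0.170% in slow and 0.0482% and 0.0582% in WT. Another of its sites, 308 bases upstream, was called lower by Fisher's test. It had 0 reads in slow and 15 in WT over the libraries of each strain. With no reads in slow, it could not have been kept through the slow libraries. RPL22A used a 5′ site 122 bases downstream at 0.619% and 0.842% in slow and 0.363% and 0.470% in WT.

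RPL7B, whose spliced level fell, gained 5′ sites inside its second intron. The site 314 bases downstream had 13 and 32 reads in slow and 0 in both WT libraries. Against a floor of 3 reads over the WT libraries, its SEF was at least 44.0-fold higher (edgeR unadjusted p = 7.02e-04, adjusted p = 0.20; DESeq2 adjusted p = 4.11e-04). A site 306 bases downstream had 7 and 21 reads in slow and 0 in WT, at least 27.3-fold higher. Both join to the annotated 3′SS, and neither has the consensus GTATGT. RPS22B went the other way. Its site 414 bases downstream, a GTAAGC, was used at 0.318% and 0.603% in slow and at 2.63% and 2.64% in WT, with 28 and 62 reads against 316 and 260 (edgeR log2 ratio −2.58, adjusted p = 0.32; DESeq2 adjusted p = 0.047). QCR9 lost a 5′ site 8 bases downstream, with 0 reads in both slow libraries and 19 and 10 in WT, at least 11.0-fold lower. DYN2, a dynein light chain gene, gained a 3′ site 25 bases upstream, with 27 and 13 reads in slow and 0 in WT, at least 10.1-fold higher. TUB3, an alpha-tubulin gene, used a 5′ site 4 bases downstream at 2.40% and 1.67% in slow and 3.36% and 3.53% in WT. Fisher's test passed at all of these sites. The edgeR adjusted p was 0.32 at the second RPL7B site, QCR9 and DYN2 and 0.54 at TUB3. A site was kept if any strain reached the read minimum in each of its libraries. Between slow and WT, both RPL7B sites and DYN2 reached it in slow only, and QCR9 in WT only. This choice of sites favours such differences, and neither the fold bounds nor Fisher's test corrects for it. How much of each difference it accounts for was not tested.

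**Figure D4:**
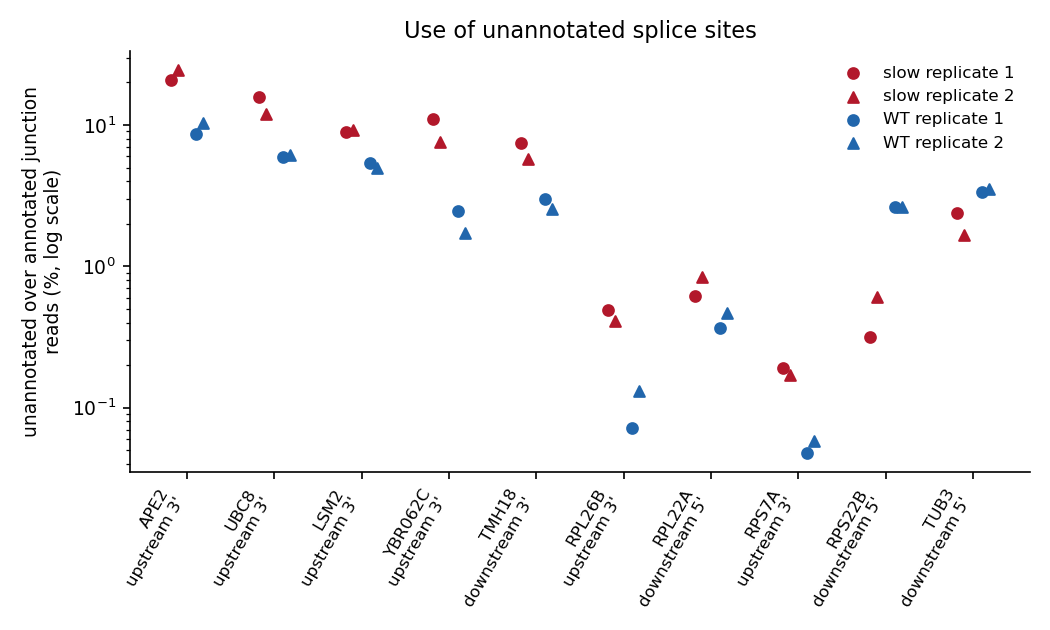
SEF in percent (log scale) of 10 unannotated sites in each of the 2 slow and 2 WT libraries. Both slow libraries lie above both WT libraries at the first 8 sites and below them at RPS22B and TUB3; none passed edgeR's test across libraries.

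The called upstream 3′ sites were described by their letters on the transcript strand. Of the 25 that were higher in slow, 11 ended in TAG or CAG (44.0%), against 30.6% of all 62 upstream 3′ sites and 95.1% of 267 annotated introns. The branch site motif TACTAAC was found within the shortened intron at 44.0% of the 25, at 66.1% of the 62 and within 82.4% of annotated introns. The shared annotated 5′SS was GTATGT at 96.0% of the 25, against 85.5% of all 62 and 76.0% of all annotated introns. A match is a description of letters and not of use.

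Junctions with neither end annotated made up a further 612 introns. Of these, 235 took more reads in slow relative to all annotated nuclear introns (38.4%) and 93 took fewer (15.2%) in Fisher's test, while edgeR called 3 higher (0.49%) and 0 lower (0.0%), with 127 at an unadjusted p under 0.05 and 21 called by DESeq2. Of the 612 introns, 303 had repeated bases at both ends or were longer than any annotated nuclear intron. At 35.6% of the introns both slow libraries lay above both WT libraries, and at 13.6% below. The annotated reads were themselves lower in slow. Scaled by library totals to the first WT library, they came to 3199042 and 3941931 in slow and to 5559899 and 4706146 in WT. With the same scaling in place of annotated reads, both slow libraries lay above both WT libraries at 26.6% of the 612 introns and below at 21.2%, and edgeR called 9 higher (1.47%) and 2 lower (0.327%). The annotation used by the authors follows coding regions, so that introns in the leaders of RP genes also fall among the 612. Introns upstream of a coding region were counted by host. At RP hosts 4 of 28 were higher and 14 lower, with 60400 and 58800 reads per 1000000 annotated reads in slow and 65600 and 62800 in WT. At other hosts 31 of 54 were higher and 5 lower, with 7600 and 8050 in slow and 4810 and 5060 in WT. With library totals the other hosts overlapped, at 24300 and 31700 scaled reads in slow and 26800 and 23800 in WT, while RP hosts were lower in slow, at 193000 and 232000 against 365000 and 295000 in WT. Inside the coding regions of other hosts 29 of 74 were higher, close to the 38.4% of all 612, and 8 were lower. Both slow libraries lay above both WT libraries at 25 of these 74 and below at 8, or at 20 and 12 with library totals. Inside those of RP hosts 5 of 24 were higher and 9 lower.

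URA2 and ARF2 hold the introns outside repeats that edgeR called relative to annotated reads, and the splice sites of both are shown with the same capitals. Both open with the consensus GTATGT and close with TAG.
URA2, 5′SS: tttgaGTATGTtttt
URA2, 3′SS: attaatattaacgacgaTAGaaatc
ARF2, 5′SS: actttGTATGTaacg
ARF2, 3′SS: taacatcagccaaccaaTAGagata

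URA2 encodes the enzyme of the first steps of pyrimidine synthesis, and the intron (chrX:172433-172752, minus strand) lies just upstream of its coding region. It took 1440 and 1540 reads per 1000000 annotated reads in slow and 434 and 455 in WT, from 5489 and 7859 unique reads in slow and 2413 and 2234 in WT (log2 ratio 1.74, standard error 0.10, edgeR adjusted p = 0.0023). With library totals it remained called (4600 and 6060 scaled reads in slow, 2410 and 2140 in WT, log2 ratio 1.23, edgeR adjusted p = 0.049). A second 3′ site, with the same 5′SS and ending at 172413, took 178 and 125 in slow and 31.8 and 19.2 in WT (log2 ratio 2.57, adjusted p = 0.079). Fast libraries held 144 and 160 on the first of these, below WT. ARF2, a GTPase of the Golgi, has its intron at chrIV:216158-216489 on the plus strand, with 2170 and 2340 in slow against 1360 and 1440 in WT (log2 ratio 0.69, standard error 0.07, adjusted p = 0.018). With library totals its libraries overlapped, at 6960 and 9240 scaled reads in slow and 7580 and 6790 in WT (log2 ratio 0.17, edgeR adjusted p = 0.77). Fisher's test passed at both introns, but it covers counting error only and takes no account of the spread between libraries. The third call, at NTH2, spans 38542 bases between 26 identical bases and is of the repeat kind, with 365 and 358 in slow and 27.9 and 34.9 in WT.

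Other hosts took more of these reads in slow relative to annotated reads without passing edgeR's adjusted threshold. RBS1 had 279 and 244 reads per 1000000 annotated reads in slow and 146 and 129 in WT (log2 ratio 0.93, adjusted p = 0.088). BMH2, a 14-3-3 protein gene, had 2060.3 and 2292.5 in slow and 1500.6 and 1674.4 in WT (log2 ratio 0.46, adjusted p = 0.12), but its libraries overlapped with library totals (log2 ratio −0.05, 6590 and 9040 scaled reads in slow, 8340 and 7880 in WT). PUS7, a pseudouridine synthase gene, had 143 and 89 reads in slow and 1 and 13 in WT, inside its coding region. Among RP hosts, RPS26A had 972 and 922 reads per 1000000 annotated reads in slow and 1200 and 1120 in WT (log2 ratio −0.30, adjusted p = 0.088). RPS8B gave −0.30, RPL24A −0.23 and RPL32 −0.12, and none of them passed. Total reads of URA2, ARF2, RBS1, BMH2 and PUS7 were not analysed here, so that more host RNA and more use of an intron cannot be told apart.

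**Figure D5:**
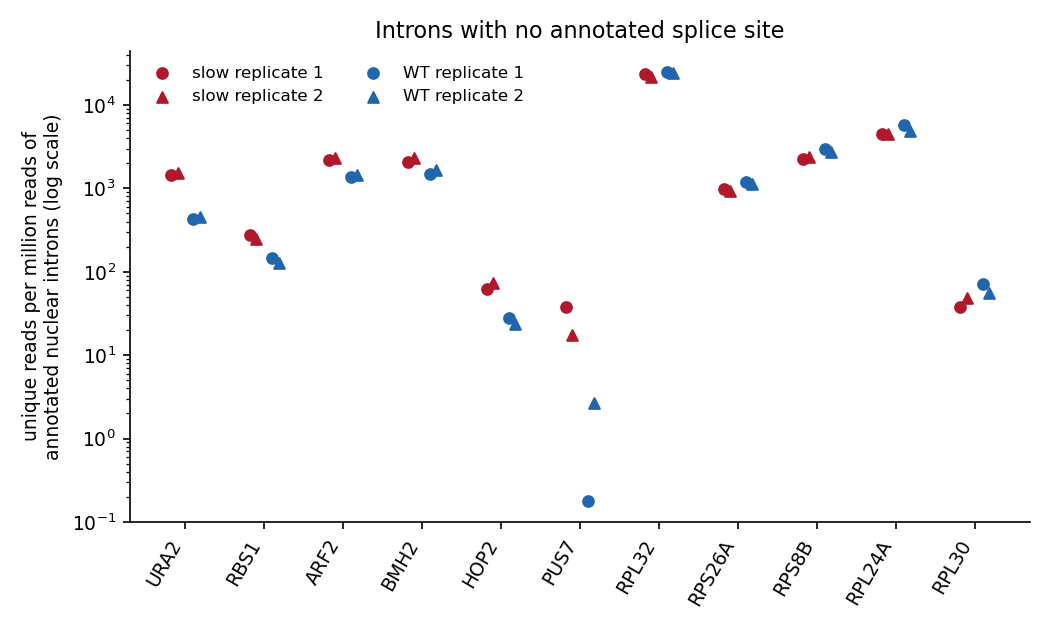
Unique reads per 1000000 reads of annotated nuclear introns, for 11 introns with no annotated end (log scale), in each of the 2 slow and 2 WT libraries. Slow points lie above WT points from URA2 to PUS7, and below them at the RP hosts RPL32 to RPL30; of these introns, those of URA2 and ARF2 passed edgeR's test. Scaled by library totals instead, the libraries overlapped at ARF2 and BMH2.

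Exon skipping was counted in 9 genes with 2 introns. Reads that join the outer splice sites were few and came mostly from single libraries. DYN2 had 10 and 54 such reads in slow and 0 and 34 in WT, and TAD3 had 0 and 29 in slow and 5 and 6 in WT. Fisher's test on summed reads called 2 genes, both lower in slow, HMRA1 (0 and 0 reads in slow, 13 and 0 in WT) and RPL7A (0 and 0 in slow, 9 and 0 in WT). Both rest on WT replicate 1, and the number called was 0 without it, 4 without WT replicate 2, 4 without slow replicate 1 and 0 without slow replicate 2. Of 17 junctions in a list of genes with 2 introns 9 rose and 2, those of RPL7B, fell. The median was 0.35 beside 0.10 over all junctions, of which 27.8% rose and 19.8% fell. Among the 9 was the junction of MMS2, a gene with a single intron in the reference, so these counts and the median include it. After TMM scaling both slow libraries lay above both WT libraries at 122 of 164 non-RP junctions. Spliced reads rose at both introns of DYN2 (0.57 and 0.54), YOS1 (0.66 and 0.68) and VMA9 (0.33 and 0.36), though with library totals none of the 17 junctions was higher (2 lower, median −0.06). The introns of the U3 snoRNA genes SNR17A and SNR17B, which are non-coding, had log2 ratios of 0.11 and 0.05 and did not pass.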

How the data were processed

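Alignment by the authors used STAR and the sacCer3 build, per the submitters' processing notes (STAR version not given in the sources used here). For each library they deposited junction tables with counts of unique and of multiply mapping split reads and the longest overhang in bases. They also deposited read counts per gene and read class from the dice-count function of DICEseq, with FPKM values beside them, from which only relative library totals were taken (count divided by FPKM). Groups came from the sample titles. Members and lists were chosen with earlier results of these data known.

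Levels and ratios were fitted across whole tables, 10 tests in all, using edgeR 4.0.16 under R 4.3.3 (quasi-likelihood), TMM scaling, Benjamini-Hochberg adjustment and a threshold of 0.05. The fits held all 6 libraries. A minimum of 10 reads per kind was set for ratios, and levels passed edgeR's default filter. DESeq2 1.42.0, library totals, a replicate block and fits without each library were alternatives, together with others in the closing section. The test of annotated junctions was added after seeing the data. Unannotated sites lay within 1000 bases of an annotated one, and sites and introns were kept if a strain had 5 or more unique reads in each of its libraries. Hosts were assigned within 300 bases, and introns with 8 or more identical bases at their ends were put with the repeats. The fits of levels and ratios were tested on simulated data. Sequences are from RefSeq R64, where 264 of 264 annotated GT-AG introns matched. Named by rule were the 8 largest called changes per test and direction and the 5 largest called sites or introns per class and direction. Both rules required that libraries of the strains did not overlap. The genes the study names, called list members and the 5 most abundant mitochondrial junctions were added. Only part of what these rules gave is described, and MRK1, CNB1, GIM4 and SCS22, for example, are left out. Of the 5 most abundant mitochondrial junctions, reads are given for BI4 and BI2. The junctions of COX1 and of the mitochondrial rRNA were among the largest called changes instead. Items outside these rules, such as the introns of URA2, ARF2 and the other hosts, the paralogs and the sites so described, were chosen after their values were seen. Fisher's test covers counting error only, and reads without molecular identifiers are not independent molecules. Steps outside R used Python 3.11.15, pandas 2.3.3, numpy 2.4.6, scipy 1.17.1 and matplotlib 3.10.9.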

Additional observations from a re-analysis of the deposited data

Results flagged for a closer look

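Multiply mapped split reads entered alternatives only. They came to 116645 in slow replicate 1 and to 104265 in slow replicate 2, above the 69641 and 68577 of the WT libraries, and the fast libraries held 70124 and 68012. An unannotated junction on chromosome X from 473832 to 479415 had 6074 and 6992 multiply mapped reads in slow and 1828 and 2216 in WT, and one on chromosome XIII from 358985 to 374682 had 4313 and 5258 in slow and 611 and 834 in WT. The first lies between the Ty genes YJR027W and YJR029W, whose frameshift sites are at 474062 and 479645. The second lies between the Ty genes YMR045C and YMR050C, with frameshift sites at 361322 and 377020. A junction on chromosome XII from 457117 to 466254 was discordant within both strains, at 3972 and 32 in slow and 174 and 2222 in WT. What gives rise to these reads was not tested.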

How the results depend on the processing

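The strains have 2 libraries each. Calls of the pre-mRNA to mRNA ratio numbered 1, or 9 with DESeq2, and 0 to 1 without a library. Those of the exon ratio numbered 5, or 16 with DESeq2, 0 with slow and WT alone or without frameshift and mitochondrial genes, and 0 without any 1 library. Without a library, calls ranged over 45 to 122 for junction reads (113 with all libraries, 73 with library totals), 16 to 68 for pre-mRNA reads (59), 53 to 143 for annotated junctions (130) and 145 to 191 for total reads (187). Splice sites gave 141 calls in Fisher's test (119 to 144 without a library), against 7 in DESeq2 and 0 in edgeR. Unannotated introns gave 328 (276 to 332), against 217 with at least 10 reads, 21 in DESeq2, 3 in edgeR and 11 in edgeR with library totals (added after seeing the data), where the log2 ratio of BMH2 turned to −0.05. The mitochondrial ratio of 162.4 became 137.5 with multiply mapped reads and ranged over 134.8 to 204.2 without a library, and skipping calls ranged over 0 to 4. Boundary and interior ratios had 0 calls under all alternatives run. The cause of these differences was not tested.

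The labels give 2 replicate numbers and no shared source for them, so the samples were taken to share only a number. Deviations of same-numbered slow and WT libraries correlated at −0.28 to 0.33. For total reads all 3 pairs of strains were positive (0.33 for slow and WT, 0.27 for slow and fast, 0.49 for WT and fast). A replicate block gave 0 calls for the pre-mRNA to mRNA ratio, 8 for the exon ratio, 130 for junction reads, 69 for pre-mRNA reads, 221 for total reads, 160 for annotated junctions, 0 for splice sites and 6 for unannotated introns. Crossed numbers, added after seeing the data where the slow and WT correlation was negative beyond −0.1, gave 0 calls for the pre-mRNA to mRNA ratio, 118 for junction reads, 57 for pre-mRNA reads and 125 for annotated junctions. Over the genes, sites and introns named by rule or described above, 1316 values kept their side of the threshold, 188 lost a call, 5 gained one and BMH2 reversed, as above. For 84 sites and introns a strain had 0 reads, so no log ratio could be set against the alternatives.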
